A study of Mus musculus with 6 samples.

Results

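T cell receptor variable segments were examined in RNA of mouse abdominal aorta taken on day 7 of an induced aneurysm, in which a stretch of the vessel bulges outward. The segments were the genes of the count table named Trav, Trbv, Trgv or Trdv with a number, and members were chosen by their raw counts, which had to reach 5 summed over all 6 libraries. Of 54532 genes in the table, 170 carried such a name and 69 of them reached 5 counts. The 69 were 45 Trav, 19 Trbv, 4 Trdv segments and the single Trgv segment, Trgv2. The summed counts that chose them range from 5 to 175 per segment and are given as a description. Mice of the group called KO lacked Olfr2, an olfactory receptor gene, and mice of the WT group were wild type. Each genotype had 3 libraries, all 6 from mice with an induced aneurysm, and untreated aorta was not analysed here. The labels do not give the strain, the age, the way the gene was inactivated, how the aneurysm was induced, or whether a library came from 1 animal, so every p-value rests on library-to-library spread, which may be technical.

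Each T cell joins 1 variable segment to a joining segment, with a diversity segment in between for the beta and delta chains, and splices the result to a constant region. Trav and Trbv encode the variable part of the alpha and beta chains of conventional T cells, and Trgv and Trdv that of gamma-delta T cells. Because a T cell carries the segment it picked in the thymus into all of its daughters, the mixture of segments in a tissue reflects which T cell clones are there. In a bulk sample, fewer T cells and less receptor RNA per T cell cannot be told apart.

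Olfr2 itself had 0 counts in all 6 libraries, so its count could not check the genotype labels. The libraries held 17248918 to 21872027 gene counts, and their pairwise Pearson correlations across genes (on log2 CPM, where CPM is the count relative to library size) ran from 0.968 to 0.982. No pair agreed within sampling noise, the lowest chi-square per degree of freedom being 25.6. The smooth muscle list (Myh11, Acta2, Cnn1, Lmod1, Smtn) summed to 1575 to 2477 CPM in KO and 917 to 1384 CPM in WT, so the markers of the labelled tissue were present in every library. Lyz2, a macrophage gene, had 523 counts in WT replicate 2 and 71223 or more in each of the other libraries, which sets that library apart.

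The germline 3′ ends of the segments on which the results turn are shown first, since this is the stretch that meets the joining segment and opens the third antigen-contacting loop. Each is the last 60 bases of the GENCODE release M21 transcript on GRCm38, 5′ to 3′, with the codon of the conserved cysteine in capitals. That codon was found by a search on the coding strand for TAT or TAC, any 3 bases, and TGT or TGC. The pattern was present in the last 60 bases of 91.2% of the 170 segments. The first 3 are sister segments of one family, and the next lie elsewhere in the beta locus on chromosome 6.
Trbv13-2 (chr6:41121773-41121832, plus strand): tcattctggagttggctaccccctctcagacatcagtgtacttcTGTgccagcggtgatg
Trbv13-3 (chr6:41130526-41130585, plus strand): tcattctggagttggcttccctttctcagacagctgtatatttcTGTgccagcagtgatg
Trbv13-1 (chr6:41116409-41116468, plus strand): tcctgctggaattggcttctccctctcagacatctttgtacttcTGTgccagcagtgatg
Trbv2 (chr6:41047936-41047995, plus strand): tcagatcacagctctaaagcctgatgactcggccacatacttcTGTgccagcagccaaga
Trbv14 (chr6:41135557-41135616, plus strand): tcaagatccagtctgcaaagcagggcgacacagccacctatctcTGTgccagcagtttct
Trbv15 (chr6:41141599-41141658, plus strand): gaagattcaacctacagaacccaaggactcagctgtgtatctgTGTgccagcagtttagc
Trdv4 (chr14:54075456-54075515, plus strand): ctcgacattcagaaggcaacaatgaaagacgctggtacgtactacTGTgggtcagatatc
Trgv2 (chr13:19336573-19336632, minus strand): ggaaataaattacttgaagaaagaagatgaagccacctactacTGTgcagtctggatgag

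The alpha locus on chromosome 14 holds near copies, named with d or n after the segment number, and a short read may match more than 1 of them. Trav12-2, the Trav segment with the most counts, is printed beside its copy Trav12d-2 over the 90 bases where they differ most, with the differing bases in capitals. They differ at 13 of 426 bases in all and at 5 of these 90. Trav16 and Trav16n differ at 6 of 412 bases and at 3 of the 90 printed. Trav11, which joined to Traj18 makes the invariant alpha chain of natural killer T cells, has a copy, Trav11d, with no difference over 342 bases. The last 60 bases of Trav11d (chr14:52824853-52824912), with its cysteine codon in capitals, also stand in Trav11 (chr14:53519799-53519858).
Trav12-2: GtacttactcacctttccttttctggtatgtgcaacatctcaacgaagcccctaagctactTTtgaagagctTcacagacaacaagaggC
Trav12d-2: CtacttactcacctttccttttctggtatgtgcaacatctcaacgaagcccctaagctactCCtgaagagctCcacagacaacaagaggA
Trav16: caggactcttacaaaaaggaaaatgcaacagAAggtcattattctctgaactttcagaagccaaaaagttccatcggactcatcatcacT
Trav16n: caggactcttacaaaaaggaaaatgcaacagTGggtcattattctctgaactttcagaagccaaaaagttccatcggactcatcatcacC
Trav11 and Trav11d: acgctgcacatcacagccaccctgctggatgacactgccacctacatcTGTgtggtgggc

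Segments with a full copy had few counts. Of 128 Trav segments, 42 had another segment whose sequence matched theirs at every base of the shorter transcript, and 34 of the 42 were at 0 in all libraries. The 42 held 16 counts together and none reached 5. The 66 Trav segments whose nearest copy was at least 95% but not fully identical held 548 counts, and 36 of them reached 5. All 35 Trbv segments were under 95% identical to any other, and they held 1284 counts. Trav11 and Trav11d were both listed at 0 in all 6 libraries, which for a fully duplicated sequence does not bear on whether the transcript was present. Segment names without d or n took 76.4% of the Trav counts. Where reads of near-identical copies were split or dropped is not stated, so single Trav values are uncertain.

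**Figure D1:**
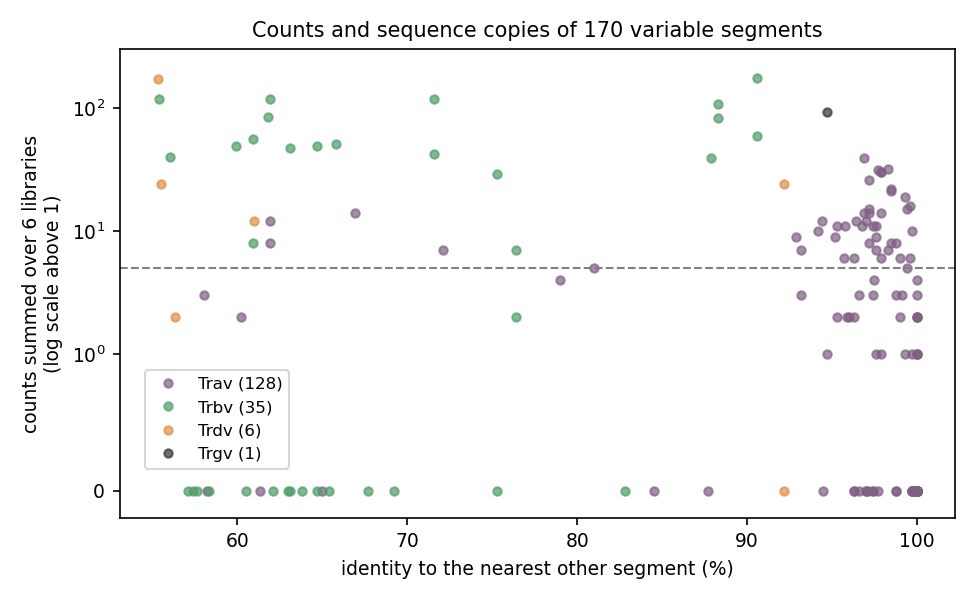
Counts summed over the 6 libraries (vertical axis, log scale above 1) against the identity of each of the 170 segments to its nearest other segment in percent (horizontal axis), with 1 point per segment, coloured by locus, and the minimum of 5 counts dashed. The Trav segments with 100% identity lie below the dashed line, while the Trbv segments with many counts spread from 55.4 to 90.6% identity.

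At the threshold, Trav5-1 and Trav9d-1 entered with 5 counts each, and Trav12-4, Trav16d-dv11 and Trav9n-3 stayed out with 4 each. With these included, 29 named segments had 1 to 4 counts, and 72 had 0. Of the 72, 42 were not annotated as pseudogenes, among them Trbv4, Trbv5 and Trbv21. Of the exon bases of Trbv4 and Trbv5, 75.1% and 79.3% overlap 5830405F06Rik, so their counts of 0 are uncertain. Trbv24 was the single pseudogene among the 69, with 7 counts. Levels were low throughout: 40 of the 69 segments had under 20 counts in all.

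Receptor variable segments stood lower in KO than in WT as a sum in the alpha and beta loci. Trbv segments summed to 169, 188 and 206 counts in the KO libraries (replicates 1, 2 and 3, the order used throughout) and to 255, 263 and 201 in the WT libraries. Scaled to library size by TMM (edgeR's trimmed mean of M-values), these were 9.70, 9.62 and 9.60 CPM in KO and 13.9, 15.9 and 11.6 CPM in WT, so all 3 KO libraries lay below all 3 WT libraries. The mean was 9.64 ± 0.0503 CPM (SD, n = 3) for KO against 13.8 ± 2.19 CPM (SD, n = 3) for WT, a log2 ratio of -0.52. Trav segments summed to 69, 93 and 74 counts in KO and 142, 117 and 107 in WT. Their level was 4.06 ± 0.659 CPM (SD, n = 3) for KO against 6.99 ± 0.785 CPM (SD, n = 3) for WT, a log2 ratio of -0.79, again without overlap. A sum over chosen segments was given no test.

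The delta and gamma loci overlapped between genotypes. Trdv segments summed to 32, 23 and 48 counts in KO and 41, 56 and 33 in WT, which is 1.75 ± 0.536 against 2.51 ± 0.786 CPM (SD, n = 3 per genotype). WT replicate 3 lay below KO replicate 3. Trgv2 had 3, 16 and 10 counts in KO and 29, 25 and 9 in WT, which is 0.486 ± 0.324 against 1.2 ± 0.594 CPM (SD, n = 3 per genotype). Here too WT replicate 3 lay inside the KO range. The other gamma segments carry Tcrg-V names in the table and so are not among the 69. Tcrg-V1 had 7, 5 and 19 counts in KO and 13, 14 and 4 in WT, and Tcrg-V4 had 2, 5 and 7 against 18, 2 and 6. Added to Trgv2, all gamma segments summed to 18, 28 and 39 counts in KO and 68, 46 and 21 in WT, and the groups overlapped.

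**Figure D2:**
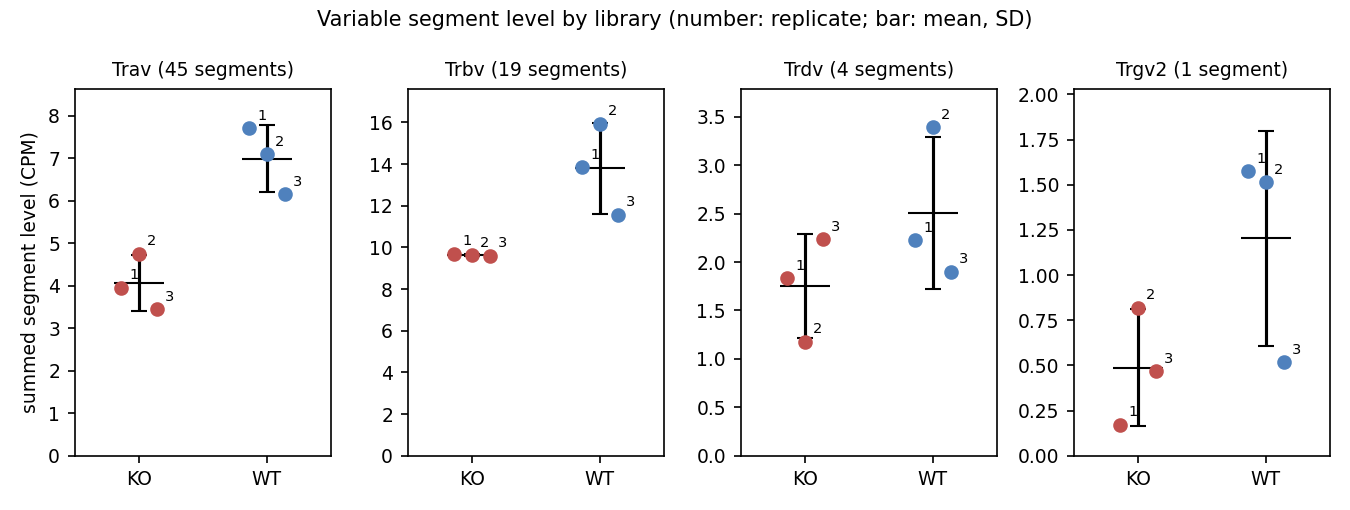
Summed level of the 69 segments per library in CPM, by locus, with a point for each library marked by its replicate number and the mean and SD (n = 3) as bars. KO and WT points are apart for Trav and Trbv and overlap for Trdv and Trgv2.

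The count test asked which single segments differed between KO and WT, over all genes. After edgeR's filter on low counts 10 of the 69 segments were left among 16237 tested genes, and 0 passed an adjusted p under 0.05 (edgeR's quasi-likelihood test, Benjamini-Hochberg). Over all tested genes 0.0123% passed. The 10 had log2 fold changes from -1.28 to 0.28 and adjusted p-values from 0.478 to 0.986, and 0 of 10 had an unadjusted p under 0.05, where 6.08% of tested genes were lower and 5.23% higher at that level. Limma-voom called 0 of the same 10. DESeq2 gave an adjusted p for 6 of them and called 0, and gave none for Trbv12-1, Trbv19, Trbv20 and Trgv2. To include every segment, the edgeR test was run on all 23712 genes with at least 5 summed counts. It called 0 of 69 segments and 0.0253% of those genes. At an unadjusted p under 0.05, 6 segments were lower and 0 higher in KO, where 4.88% of the genes were lower and 4.67% higher. The 6 of 69 are 8.70%.

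Without a test, 56 of the 69 segments (81.2%) had a lower mean CPM in KO, against 47.5% of genes with at least 5 counts. The KO libraries all lay below the WT libraries for 15 segments (21.7%), against 7.60% of genes, and all above for 0 segments, against 7.09%. Of those 15, 6 had the same raw count in the highest KO and the lowest WT library and separate through scaling alone. In raw counts 8 segments separated, against 2.08% of genes. With library size alone as the scaling 12 separated, and the share of genes was not computed for it. The 15 were 9 Trav, 4 Trbv and 2 Trdv segments. The median log2 fold change was -0.60 for the 69 segments and 0.01 for the 23712 genes. Segments share their libraries and their T cells, so they are not independent of each other. Without WT replicate 3 the KO libraries lay below the remaining WT libraries for 24 segments (12.0% of genes), and without WT replicate 2 for 17 (11.9% of genes).

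Among beta segments, Trbv13-2, known for its use by natural killer T cells and by many conventional T cells, stood first per kilobase of exon, at 515 counts per kilobase over the 6 libraries. It had 21, 30 and 25 counts in KO and 39, 26 and 34 in WT. The level was 1.3 ± 0.203 CPM (SD, n = 3) for KO against 1.88 ± 0.279 CPM (SD, n = 3) for WT, with no overlap in CPM though the counts overlap. Its log2 fold change came to -0.53 with an SE of 0.31 (adjusted p = 0.576, from edgeR). The sister segments Trbv13-3, at 7, 9 and 5 against 18, 13 and 7 counts, and Trbv13-1, at 3, 3 and 9 against 12, 8 and 4, overlapped. Per kilobase Trbv16 (299), Trbv1 (283), Trbv12-2 (281) and Trbv3 (262) followed and lay close together.

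Trbv16 had 15, 17 and 23 counts in KO and 17, 30 and 17 in WT. Trbv3 had 13, 25 and 14 against 18, 26 and 23, and Trbv12-2 had 6, 12 and 24 against 28, 19 and 19. Each of these overlapped between genotypes, at log2 fold changes of -0.40 (SE 0.39), -0.53 (SE 0.40) and -0.83 (SE 0.46). Trbv1, at 21, 20 and 20 counts in KO and 22, 26 and 9 in WT, had a log2 fold change of -0.06 (SE 0.44). Trbv19 (15, 11 and 5 against 16, 10 and 27 counts) and Trbv12-1 (14, 10 and 23 against 13, 9 and 14) overlapped as well. None of these segments passed.

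Trbv15 and Trbv14, neighbours in the beta locus, were the beta segments with an unadjusted p under 0.05. Trbv15 had 4, 2 and 2 counts in KO and 11, 16 and 7 in WT, so every KO library was lower. Its level was 0.142 ± 0.0762 against 0.657 ± 0.288 CPM (SD, n = 3 per genotype), a log2 fold change estimated at -2.19 (SE 0.67; adjusted p = 0.299, edgeR over genes with at least 5 counts). Trbv14 had 4, 6 and 5 counts in KO and 11, 17 and 8 in WT, a log2 fold change estimated at -1.42 (SE 0.57; adjusted p = 0.448, the same test). Trbv29, another beta segment of natural killer T cells, had 7, 3 and 7 against 9, 12 and 11 counts and did not overlap. On the other side, Trbv26 had 7, 7 and 5 counts in KO and 3, 5 and 2 in WT, and Trbv20 had 20, 4 and 8 against 3, 10 and 11, both with overlap.

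Among alpha segments the largest had few counts. Trav12-2 had 1, 3 and 6 counts in KO and 10, 10 and 9 in WT, with no overlap and a log2 fold change estimated at -1.69 (SE 0.66; adjusted p = 0.437, edgeR over genes with at least 5 counts). Trav13-4-dv7, which can join to alpha or delta joining segments, had 2, 1 and 2 against 11, 2 and 12 counts. Its log2 fold change came to -2.37 with an SE of 0.84 (adjusted p = 0.378, the same test), with WT replicate 2 next to the KO libraries. Trav7-4 had 0, 1 and 0 counts in KO and 7, 3 and 5 in WT. Trav5-4 had 3, 2 and 4 against 13, 5 and 5 counts. In these the WT libraries were the higher ones in CPM, and Trav13-4-dv7 had 2 counts in both its highest KO and lowest WT library.

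Trav7-5, Trav21-dv12, Trav8d-2, Trav4-3 and Trav2, with 8 to 12 counts each over all libraries, were also lower in KO without overlap in CPM. Of these only Trav7-5, at 0, 1 and 1 against 3, 4 and 2 counts, separated in raw counts. Trav21-dv12, Trav8d-2 and Trav4-3 had 2 counts in both the highest KO and the lowest WT library, and Trav2 had 1 in both. Further alpha segments with more counts overlapped. Trav3-3 had 6, 11 and 4 counts in KO and 6, 1 and 2 in WT. Trav14-2 had 4, 10 and 0 against 12, 2 and 3 counts, Trav14-3 had 2, 4 and 1 against 0, 9 and 10, Trav16 had 1, 1 and 8 against 7, 3 and 1, and its copy Trav16n had 3, 3 and 2 against 11, 3 and 0. Within WT alone, Trav14-3 ran from 0 to 10 counts and Trav16n from 0 to 11. Trav1, which joined to Traj33 makes the invariant alpha chain of mucosal-associated invariant T cells, had 1, 2 and 0 counts in KO and 0 in each WT library, below the minimum. Traj18 had 1 count in total, in WT replicate 1.

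Among delta segments, Trdv4, known from gamma-delta T cells made early in development, dominated the locus. It had 26, 19 and 41 counts in KO and 26, 41 and 20 in WT, which is 1.46 ± 0.471 against 1.68 ± 0.707 CPM (SD, n = 3 per genotype), a log2 fold change estimated at -0.20 (SE 0.41; adjusted p = 0.921, from edgeR). Trdv2-2 had 3, 2 and 2 counts in KO and 4, 7 and 6 in WT, and Trdv1 had 0, 0 and 1 against 4, 6 and 1. KO replicate 3 and WT replicate 3 each had 1 count of Trdv1, so its groups separate in CPM and not in counts. Trdv5 had 3, 2 and 4 against 7, 2 and 6 counts, and 47.3% of its exon bases overlap Trdc on the other strand, so its count is uncertain. Trdv2-2 shares 26.4% of its exon bases with Gm43647, so the same holds for it. Trdv4 made up 83.1 ± 2.12% of the Trdv counts in KO and 65.7 ± 6.62% in WT (SD, n = 3 per genotype), and these shares did not overlap. Together Trdv1, Trdv2-2 and Trdv5 stood at 0.292 ± 0.0760 CPM (SD, n = 3) for KO against 0.824 ± 0.0810 CPM (SD, n = 3) for WT, a grouping made after the values were seen.

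The alpha and beta constant regions that the segments are spliced to also stood lower in KO, while the delta and gamma ones overlapped between genotypes as sums. Trac had 395, 428 and 376 counts in KO and 589, 613 and 613 in WT, a log2 fold change estimated at -0.75 (SE 0.14; adjusted p = 0.103, from edgeR). Trbc1 and Trbc2 together stood at 48.5 ± 4.20 CPM (SD, n = 3) for KO against 77.5 ± 9.16 CPM (SD, n = 3) for WT. Trbc2 had an adjusted p of 0.102 and Trbc1 of 0.168 (edgeR), and Trac, Trbc1 and Trbc2 passed with DESeq2, at adjusted p-values of 0.000963, 0.0229 and 0.000412. Over all 16237 tested genes DESeq2 called 454, where edgeR called 2 and limma-voom 0. Per 100 counts of Trac there were 17.5, 21.7 and 19.7 Trav counts in KO and 24.1, 19.1 and 17.5 in WT. Per 100 counts of Trbc1 and Trbc2 there were 21.3, 20.6 and 18.0 Trbv counts in KO and 19.8, 18.2 and 15.5 in WT. Both ratios overlapped between genotypes, at log2 ratios of -0.043 and 0.17, so per constant-region count the segments showed no separation. Trdv counts per 100 counts of Trdc were 41.6, 21.7 and 34.5 in KO and 19.7, 30.8 and 31.7 in WT, again overlapping.

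**Figure D3:**
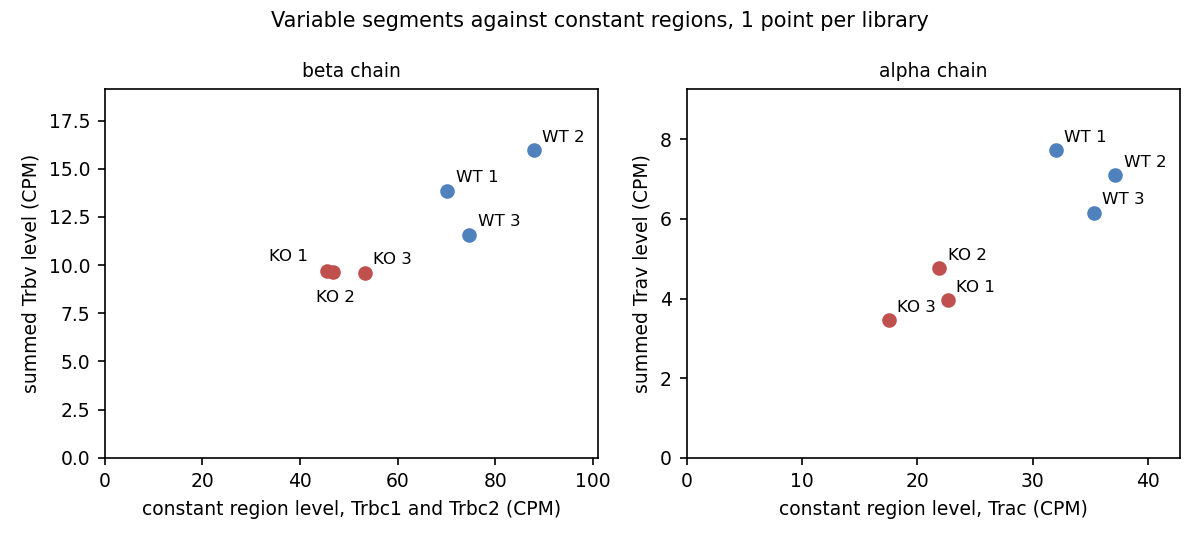
Summed variable-segment level against constant-region level in CPM for the beta chain (Trbc1 and Trbc2) and the alpha chain (Trac), with 1 point per library, KO in red and WT in blue. The KO libraries lie to the lower left of the WT libraries in both panels.

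Within a locus, most segments took shares that overlapped between genotypes. The share of a segment in its locus did not overlap between KO and WT for 3 of 19 Trbv segments, 3 of 45 Trav segments and 3 of 4 Trdv segments. Of genes with at least 5 counts, 14.7% did not overlap in CPM in one direction or the other, which measures level and not share. No such percentage was computed for shares, and shares within a locus of 4 segments depend on each other. Of the beta segments, Trbv14 held 2.66 ± 0.460% of Trbv counts in KO and 4.92 ± 1.35% in WT (SD, n = 3 per genotype). Trbv15 held 1.47 ± 0.781 against 4.63 ± 1.33%, and Trbv26 held 3.43 ± 0.894 against 1.36 ± 0.479% (SD, n = 3 per genotype). Of the alpha segments, Trav3-3 held 8.64 ± 3.21% in KO and 2.32 ± 1.73% in WT (SD, n = 3 per genotype), and the shares of Trav7-4 and Trav7-5 were lower in KO. These shares were given no test.

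**Figure D4:**
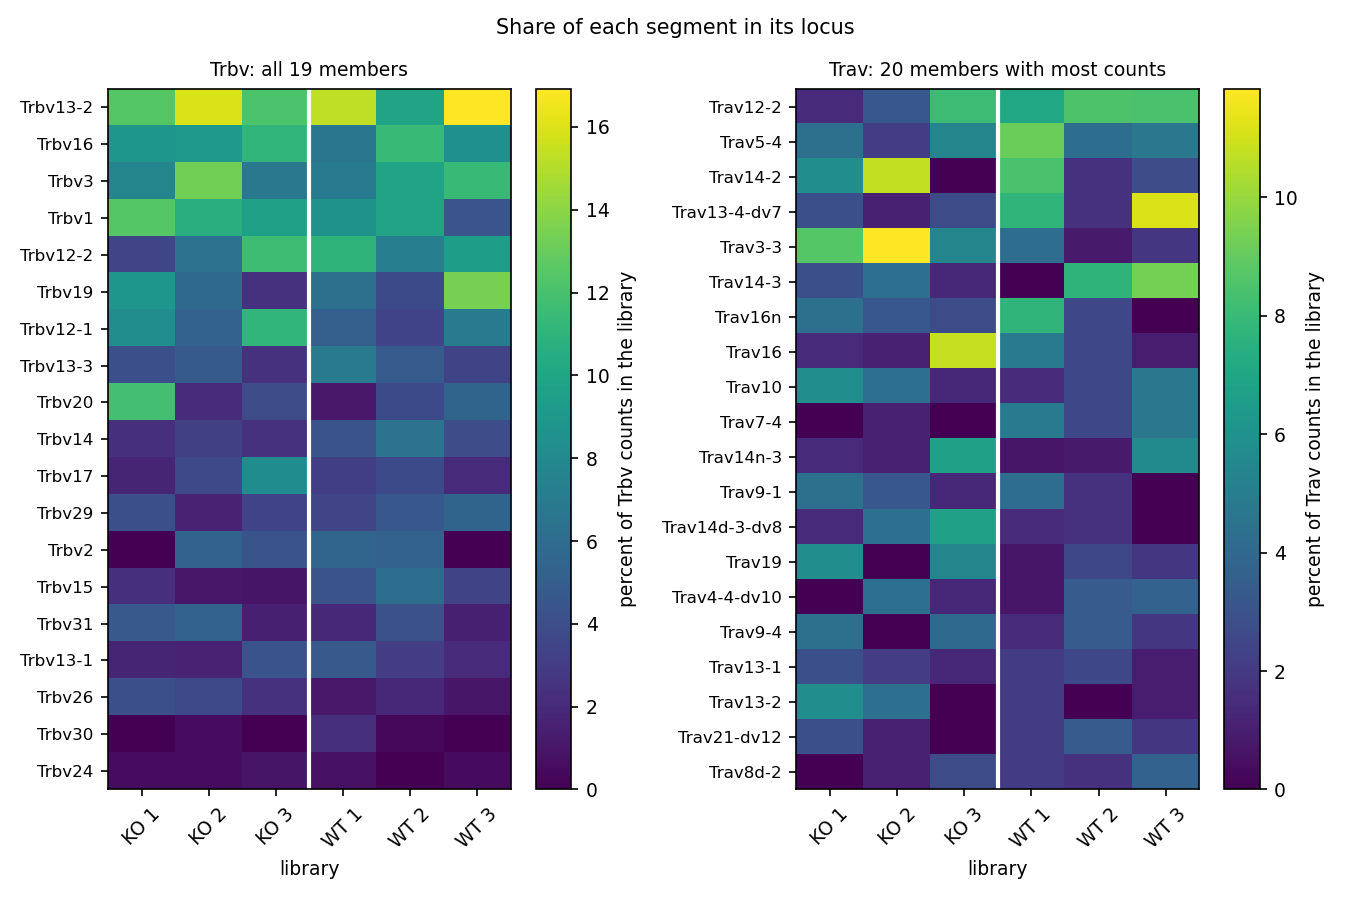
Percent of the locus counts taken by each segment in each library, for all 19 Trbv segments and the 20 Trav segments with the most counts, KO libraries left and WT libraries right of the white line. Beta shares vary between libraries: Trbv20 runs from 1.18% in WT replicate 1 to 11.8% in KO replicate 1. Trbv19 runs from 2.43% in KO replicate 3 to 13.4% in WT replicate 3. The Trbv2 cells are dark in KO replicate 1 and WT replicate 3, and those of Trbv30 are dark there too. The alpha pattern is scattered.

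No library was dominated by a single segment. The most used Trbv segment held 12.4% of Trbv counts in KO replicate 1, 16.0% in KO replicate 2 and 12.1% in KO replicate 3. It held 15.3%, 11.4% and 16.9% in WT replicates 1 to 3. Exact binomial 95% intervals were 11 to 22% in KO replicate 2 and 12.0 to 22.8% in WT replicate 3, and they cover counting error only. The segment was Trbv13-2 in 5 libraries, level with Trbv1 in KO replicate 1, and Trbv16 in WT replicate 2. For Trav the most used segment held 8.55 to 11.8% and differed between libraries: Trav3-3 in KO replicates 1 and 2, Trav16 in KO replicate 3, and Trav5-4, Trav12-2 and Trav13-4-dv7 in WT replicates 1 to 3.

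Diversity overlapped between genotypes. The effective number of segments, the number of equally used segments that would give the same chance of drawing the same segment in a pair of counts, was 12.8, 12.4 and 12.7 for Trbv in KO and 13.8, 14.7 and 11.2 in WT. For Trav it was 32.6, 25.6 and 25.7 in KO and 23.3, 38.1 and 23.6 in WT. The KO values lay within the WT range for both loci. At an equal number of 169 Trbv counts per library, 17, 18.8 and 17.9 of the 19 segments would be detected in KO and 18.8, 17.6 and 16.8 in WT. At 69 Trav counts, 29.0, 30.3 and 27.4 of the 45 would be detected in KO and 27.3, 34.6 and 28.5 in WT. Without equal counts, 30.3 ± 3.21 Trav segments were detected in KO and 35.7 ± 3.79 in WT (SD, n = 3 per genotype), and the WT libraries held more Trav counts.

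**Figure D5:**
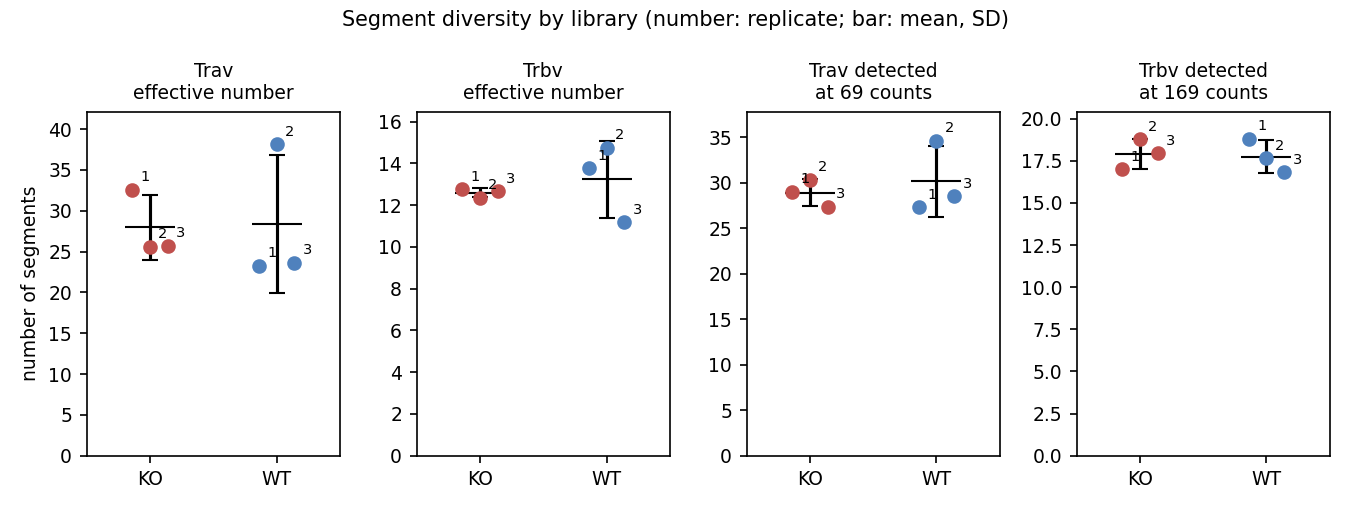
Effective number of segments and number detected at equal counts for Trav and Trbv, with a point per library marked by its replicate number and the mean and SD (n = 3) as bars. KO and WT points overlap in all 4 panels.

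Segment use was compared between libraries by the Morisita-Horn index, which is 1 for identical proportions and 0 for no shared segment. For Trbv it was 0.833 to 0.885 between KO libraries, 0.843 to 0.920 between WT libraries and 0.817 to 0.925 between genotypes. For Trav it was 0.425 to 0.689, 0.592 to 0.750 and 0.466 to 0.676. The range between genotypes overlapped both ranges within a genotype. Trav had fewer counts spread over more segments than Trbv, and the part of this in its lower index was not tested.

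Trbv2 was missing from a pair of libraries of different genotypes. It had 0, 10 and 9 counts in KO, against 14, 14 and 0 in WT. In the 4 libraries with counts it held 5.32, 4.37, 5.49 and 5.32% of Trbv counts, with exact 95% intervals whose lowest bound was 2.02%, in KO replicate 3. For 0 of 169 Trbv counts in KO replicate 1 the same exact interval reached 2.16%, which overlaps that of KO replicate 3. For 0 of 201 in WT replicate 3 it reached 1.82%. By the other limit used for a count of 0, that of 3 counts, shares of up to 1.78% and 1.49% are allowed. Of the 17 Trbv segments with at least 20 counts it was the only one with a library at 0. Trbv3, the next segment along the chromosome, had 13 and 23 counts in those libraries. Over the whole table, Trbv2 was the single gene at 0 in both of them with at least 6 counts in each of the other 4. It was singled out after its values were seen.

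The wider T cell programme stood lower too, and other lists differed in level beside it. Of 7 tested constant regions, 7 had a negative log2 fold change and 0 passed over all genes, with a median of -0.72. For the receptor complex and coreceptors (such as Cd3e, Cd4 and Cd8a) it was 10 of 10 with a median of -0.68, and the list summed to 137 to 182 CPM in KO and 228 to 296 CPM in WT. Regulatory T cell genes (5 of 5, median -0.66) and NK cell genes (7 of 7, median -1.0) were likewise lower without overlap of the sums. Over all tested genes the median was 0.01. Among gamma-delta T cell genes 3 of 6 were negative, with a median of -0.07, and Il17a, a cytokine of such cells, had 0 to 6 counts a library. B cell genes summed to 31.0 to 47.7 CPM in KO and 26.3 to 45 in WT, and plasma cell genes overlapped as well. Immunoglobulin variable segments, the counterpart in B cells, numbered 135 with at least 5 counts. They summed to 75.0 to 143 CPM in KO and 48.2, 87.0 and 749 CPM in WT, with WT replicate 3 far above the rest.

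White adipocyte genes summed to 758 to 1436 CPM in KO and 181 to 694 CPM in WT, led by Fabp4. Fabp4, Lep and Pparg were higher in KO without overlap, while Adipoq, Cidec and Plin1 each overlapped between genotypes. Lymph node stroma genes summed to 27.7 to 83.3 CPM in KO and 9.03 to 20.1 CPM in WT, led by a Ccl21a entry. A further Ccl21a entry, Cxcl13, Madcam1, Glycam1 and Ccl19 each overlapped between genotypes. Smooth muscle genes were higher in KO as given above. Their part in the lower segment levels was not tested. Of the genes that recombine receptor segments in the thymus, Rag2 was at 0 in every library and Rag1 had 1 count in total. Dntt, which adds bases at the joins, had 43, 96 and 33 counts in KO and 58, 96 and 94 in WT, and none of its exon bases overlap another gene.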

How the data were processed

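RNA of abdominal aorta from 3 KO and 3 WT libraries was captured on poly-T beads before sequencing, per the labels' protocols. The authors deposited raw whole-number read counts per gene. The submitters' processing notes list HISAT2 2.0.5, featureCounts 1.5.0-p3 and the build GRCm38. How strand and reads matching several genes were handled was not stated there. The segments, lists and named-gene rule were chosen with earlier results of these data known. The rule named the 8 Trav, 8 Trbv and 3 Trdv with the most counts, Trgv2, tested segments with an unadjusted p under 0.05, segments of invariant T cells and their usual beta partners, and those at the threshold. Other segments and genes were named after their values were seen.

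Counts were tested in R 4.3.3 with edgeR 4.0.16 (filterByExpr, TMM, quasi-likelihood, Benjamini-Hochberg over all tested genes, adjusted p under 0.05). DESeq2 1.42.0 and limma 3.58.1 were alternatives. CPM used TMM-scaled library sizes. Positions, exons and sequences came from GENCODE release M21 (GRCm38). Identity was the share of bases of the shorter transcript matched in the longer. Detection at equal counts was computed as an expectation, and a count of 0 allows up to 3 counts.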

Additional observations from a re-analysis of the deposited data

How the results depend on the processing

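No tested segment passed in any fit. The fits with edgeR's filter tested 10 to 18 of the 69 segments, DESeq2 gave an adjusted p for 6, and all 69 were tested with no filter and with at least 5 summed counts. Over all genes edgeR called 2 genes, and 644 with no filter, 6 with at least 5 summed counts, 454 by DESeq2, 0 by limma-voom, 0 with the replicate block, and 0 to 155 with a library left out, 155 without WT replicate 3. No label says that the replicate numbers pair libraries, and deviations of same-numbered libraries from their group means correlated at -0.10, -0.06 and -0.12. The summed Trav log2 ratio of -0.79 was -1.01 without near-identical copies, which left 9 of the 45 Trav segments. It was -0.043 per constant-region count. The Trbv and Trdv ratios of -0.52 turned to 0.17 and 0.25 per constant-region count, and that of Trgv2 went from -1.31 to -0.59. Other scalings and member rules moved no summed ratio by more than the spread between libraries. With a library left out the ratios ran from -0.92 to -0.68 for Trav, -0.63 to -0.40 for Trbv, -0.74 to -0.24 for Trdv and -1.91 to -0.91 for Trgv2. Trdv1 and Trdv2-2 alone gave -1.97 where Trdv5 with them gave -1.50 (-1.63 to -1.30 with a library left out). Of Trdv1 and Trdv2-2, only the latter has exons that partly overlap another gene, Gm43647. The effective number in KO minus WT ran from -2.90 to 4.52 for Trav and -1.66 to 0.12 for Trbv with a library left out. The Trav segments detected in KO minus WT were -5.33 without equal counts and -1.24 with them. Segments with a lower mean in KO numbered 48 to 54 with a library left out, and those without overlap in CPM 17 to 24, or 14 with upper quartile factors and 12 with library size alone. Trbv1 turned to 0.063 with limma-voom and 0.034 with the block, and ran from -0.39 to 0.29 with a library left out. Left-out libraries also turned Trbv12-1 (-0.070 to 0.46, lowest without KO replicate 3), Trbv20 (-0.66 to 0.68, lowest without KO replicate 1) and Trdv4 (-0.45 to 0.19, highest without WT replicate 2). The cause of these turns was not tested. The sums with Tcrg-V, the counts with a library left out, and the groupings without Trdv4, Trdv5 or Trbv2 were chosen after seeing the data. Depth limits single segments, most of which had under 20 counts in all.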
